A study of Mus musculus with 3 samples.

Results

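Pax2, Pax8, Lhx1, Dach1, Emx2 and Wt1 are transcription factors of the developing kidney. They were taken as every probe, other than control spots, that the scanner files name for one of these 6 genes. This gave 10 probes among the 41174 on the array and 6 genes among the 19757 that the probes represent. The question was whether the factors of the first vesicles and those with a wider place in the kidney rudiment differed in the same way between the genotypes.

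Kidney rudiments of C57BL/6 Fgfrl1-/- embryos were compared with those of C57BL/6 wt littermates at E12.5. Fgfrl1 encodes a transmembrane receptor of the fibroblast growth factor receptor family, and the mutants lacked it in the whole embryo, not in a single tissue. On each of 3 Agilent 2-colour arrays, RNA from a pool of 6 to 9 knock-out rudiments carried Cy3 and RNA from a pool of 6 to 9 wt rudiments carried Cy5. The dyes were never exchanged between the genotypes, so a dye effect on a probe and a genotype effect cannot be told apart.

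In this design a log2 ratio below 0 means less RNA in the Fgfrl1-/- rudiments. Arrays 2 and 3 shared a slide, whereas array 1 came from a different one. Pearson's r of the log2 ratios, taken over genes that are no independent replicates, was 0.769 within that slide, 0.28 for arrays 1 and 2 and 0.324 for arrays 1 and 3. The sources do not say whether the pools came from separate litters, so the p-values measure only the spread between these 3 arrays. Whole rudiments were used, so fewer cells of a type and less RNA per cell cannot be told apart in any of the values.

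All of the 13 cap mesenchyme markers, 11 of 11 stromal markers and 12 of 13 ureteric markers were well above background in both channels of every array. Ret, the receptor of the branching ureteric bud, was the exception and lay at background on all of them. The targeted gene itself had log2 ratios of -1.22, -1.51 and -1.83 on arrays 1, 2 and 3. Fgfrl1 RNA was thus 2.86-fold lower in the knock-out (limma, adjusted p = 0.0108), and the array with the highest ratio was array 1. Without array 3 the log2 fold change was -1.36 and the call was lost (adjusted p = 0.0913). Whether its probe lies inside the deleted part of the gene is not given in the sources used here.

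Nephrons arise when mesenchymal cells around the tips of the ureteric bud condense into a cap, aggregate and turn into epithelial renal vesicles. Pax2 and Pax8 are closely related paired box proteins that act together in the early kidney, Lhx1 is a LIM homeodomain protein needed for the vesicle to be patterned, and Dach1 is a cofactor of the Eya proteins. Pax2, Wt1 and the homeodomain protein Emx2 are already required when the ureteric bud enters the mesenchyme. Pax2 and Emx2 are made in the bud as well, and Wt1 is later a marker of the podocytes of the glomerulus. The paper counts Lhx1, Pax8 and Dach1 among genes seen in the bud, in developing nephron structures or in both.

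Of the 10 probes, 3 are printed as the array carries them, 5' to 3', because their sequence or position bears on how the values may be read. The Lhx1 probe was printed on the array 10 times and gave the steadiest ratio of the factors that fell. The Pax2 probe, also printed 10 times, contains a run of 8 G, shown in capitals, and has 60 bases although its stated position spans 59. The second Dach1 probe spans 8707 bases of the genome with its 60 bases, so it reaches across an intron.
Lhx1 probe: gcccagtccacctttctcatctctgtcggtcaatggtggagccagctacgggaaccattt
Pax2 probe: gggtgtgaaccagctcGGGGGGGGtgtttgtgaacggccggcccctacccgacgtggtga
Dach1 second probe: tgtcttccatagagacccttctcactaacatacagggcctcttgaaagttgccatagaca

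In the mm8 build, to which the files refer, the Lhx1 probe is at chr11:84335784-84335843 on the minus strand. The Pax2 probe is at chr19:44814196-44814254 on the plus strand. The second Dach1 probe is on the minus strand of chromosome 14, from 96714551 to 96723257. GC content was 55% for the Lhx1 probe, 68.3% for the Pax2 probe and 45% for the second Dach1 probe.

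Lhx1, Pax8 and Dach1, grouped here as the factors of early vesicles, were lower in the Fgfrl1-/- rudiments, and none of Pax2, Emx2 and Wt1 passed the test. Dach1 is placed by the paper, from an earlier study, mainly in comma- and s-shaped bodies, which form after the vesicle. The paper's own in situ hybridization showed a strong Dach1 signal in the mesenchyme around the tips of the ureteric bud. In the limma fit over all genes, with calls made at an adjusted p below 0.05, 3 of the 3 early factors were called lower, against 1.70% of all genes tested (336 of 19757). A further 387 genes, or 1.96%, were called higher, and no member was among them. Without array 1, 2 or 3 the counts were 2257, 38 and 8 lower and 2439, 11 and 0 higher. The median log2 fold change over all genes was 0.01, while it was -0.91 for the early and -0.08 for the wider factors. The factors had been chosen with results of these arrays known, so the count of 3 of 3 is not independent evidence.

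**Figure D1:**
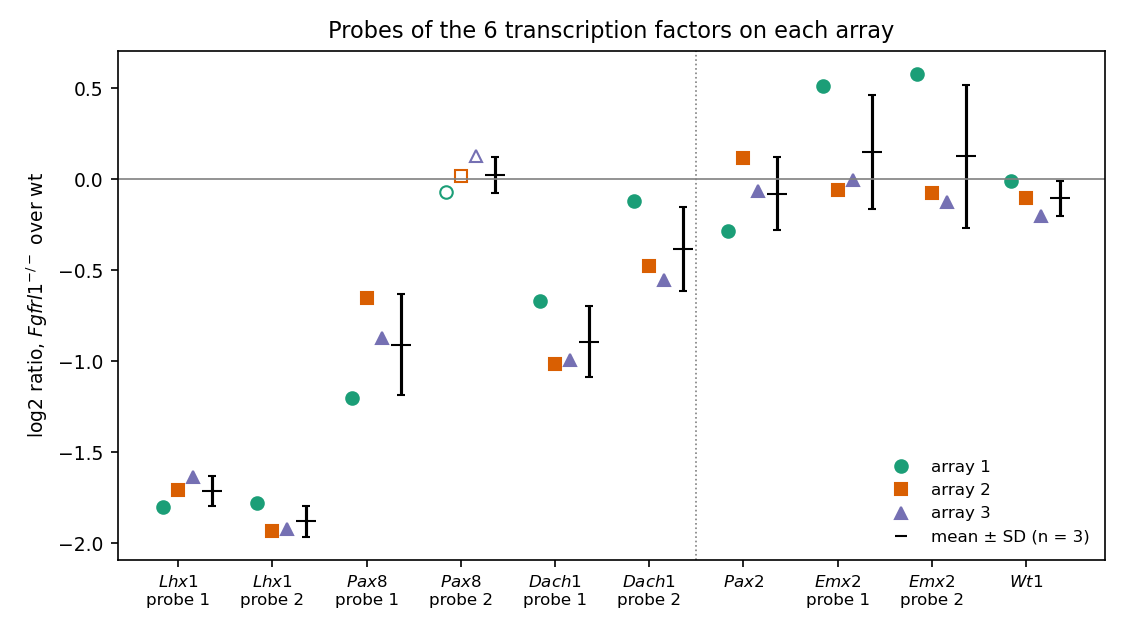
Log2 ratio of Fgfrl1-/- over wt for each of the 10 probes, with 1 symbol per array and the mean ± SD of the 3 arrays to the right; probe 1 is the one that represents the gene, and open symbols mark a probe that was not well above background. Both Lhx1 probes lie between -1.64 and -1.93, the first Pax8 and Dach1 probes between -0.66 and -1.20, and the probes of Pax2, Emx2 and Wt1 (right of the dotted line) between -0.29 and 0.58.

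Lhx1 changed most. Its log2 ratios were -1.80 on array 1, -1.71 on array 2 and -1.64 on array 3, giving a mean of -1.72 ± 0.08 (SD, n = 3). This is a level 3.28-fold lower in the knock-out, with a 95% interval of the log2 fold change from -1.90 to -1.53 (limma, adjusted p = 0.00204). No array stood apart, and counted from the lowest fold change on the array Lhx1 was at rank 10. Over genes the call held with any 1 array left out and was lost without the added offset of 50 (adjusted p = 0.0884) and in the scanner ratios (adjusted p = 0.118).

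A second Lhx1 probe, designed on a cDNA clone and located at chr11:84334581-84334640, gave log2 ratios of -1.78, -1.93 and -1.92. It was tested in the fit over all probes, in which 0.398% of the 41174 probes were called lower and 0.289% higher, and it passed at -1.88 in log2 fold change (limma, adjusted p = 0.00653). The first probe also passed in that fit (adjusted p = 0.00692). Without array 2, the first and second probe did not pass there (limma, adjusted p = 0.129 and 0.1). Neither passed without array 3 (adjusted p = 0.187 for both) or with 1 value per slide (adjusted p = 0.179 for both). Both probes of Lhx1 were detected in either genotype throughout, and their intervals of -2.06 to -1.69 and -1.90 to -1.53 overlapped.

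The 10 copies of the first Lhx1 probe show how much of the spread lies within an array. On array 1 the spots ranged from -2.21 to -1.46, with an SD of 0.238. On arrays 2 and 3 the SD over the 8 spots that were not marked as outliers was 0.0771 and 0.0686. The least negative Lhx1 spot on any array, at -1.46, was thus far below the lowest spot of Pax2 or Wt1, the other members printed 10 times. Over the 245 probes printed 10 times, the spots had a median SD of 0.153, 0.0804 and 0.0873 on arrays 1, 2 and 3. On array 1 the ratios tended to rise in spot order. From the first to the last spot, Lhx1 went from -2.21 to -1.46, Wt1 from -0.21 to 0.19 and Pax2 from -0.31 to -0.16. Moves over the spots in use were smaller on the other arrays. On array 2, Lhx1 went from -1.76 to -1.63, Wt1 from -0.03 to -0.04 and Pax2 from -0.01 to 0.09. On array 3, Lhx1 went from -1.68 to -1.50, Wt1 from -0.24 to -0.13 and Pax2 from 0.01 to -0.06. The cause was not tested, and the probes of Pax8, Dach1 and Emx2, printed once each, cannot show such a drift.

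**Figure D2:**
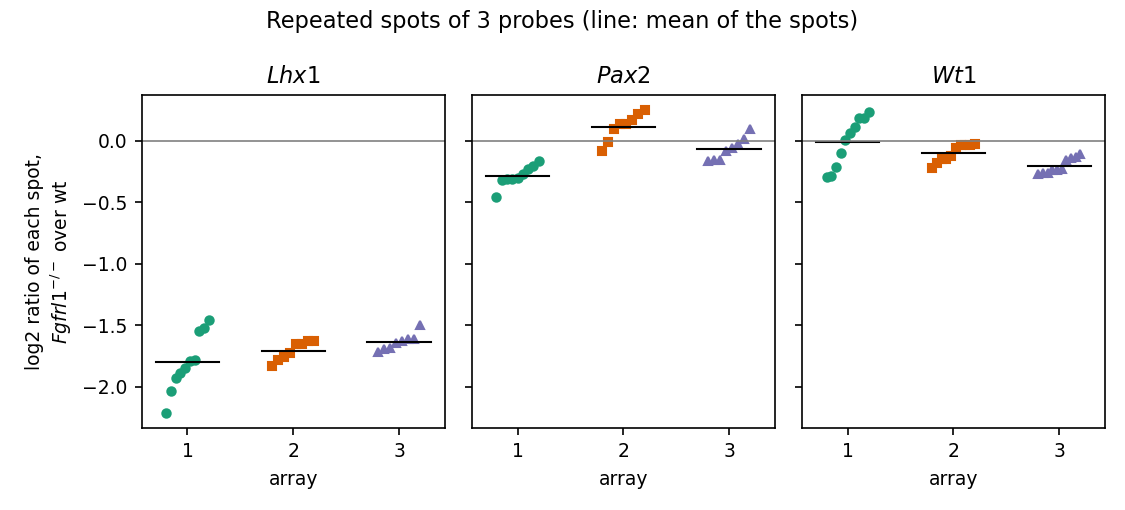
Log2 ratio of every spot not marked as an outlier for the 3 members printed 10 times, by array, with a line at the mean of the spots. Lhx1 spots lie between -2.21 and -1.46, Pax2 spots between -0.457 and 0.248 and Wt1 spots between -0.295 and 0.236, so the spots of Lhx1 do not overlap those of Pax2 or Wt1 on any array.

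Pax8 fell as well, with less agreement between arrays. The log2 ratios of its first probe, at chr2:24243274-24243333, were -1.20 on array 1, -0.66 on array 2 and -0.87 on array 3, a mean of -0.91 ± 0.27 (SD, n = 3). Levels were 1.88-fold lower in the knock-out, with an interval from -1.19 to -0.63 on the log2 scale (limma, adjusted p = 0.0224). Array 1 had the lowest ratio and array 2 the highest, and all were below 0. In the fit over all probes this probe just missed the threshold (adjusted p = 0.0509). Over genes the call was lost without array 3, at -0.93 (adjusted p = 0.164), and with 1 value per slide, at -0.98 (adjusted p = 0.08).

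The Pax8 probe was dim. Its median raw signal on array 1 was 50 for the knock-out, over a local background of 21, and 151.5 for wt, over 58. On array 2 the raw signals were 44 over 27 and 160 over 55, and on array 3 they were 54 over 31 and 167 over 49. At such signals the offset of 50 that was added before taking logs shrinks a difference, and the log2 fold change of Pax8 was -1.72 without the offset (adjusted p = 0.156) and -1.84 in the ratios of the scanner software (adjusted p = 0.129). The second Pax8 probe, at chr2:24294690-24294749, had signals at background in both genotypes on each array, so it gives no fold.

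Dach1 had log2 ratios of -0.67, -1.02 and -0.99 at its brighter probe, at chr14:96670075-96670134. The mean was -0.89 ± 0.19 (SD, n = 3), a level 1.86-fold lower in the knock-out with an interval from -1.13 to -0.66 (limma, adjusted p = 0.0172). In contrast to Pax8, array 1 had the highest ratio. The call was lost without array 2, at -0.83 (adjusted p = 0.0784), without array 3, at -0.84 (adjusted p = 0.157), and with 1 value per slide (adjusted p = 0.0908). It was also lost without the offset (adjusted p = 0.157), in the scanner ratios (adjusted p = 0.118) and in separate channels (adjusted p = 0.0744). The second Dach1 probe, the one that reaches across an intron, fell less, with -0.12, -0.48 and -0.56 on the 3 arrays. Its log2 fold change was -0.39 with an interval from -0.65 to -0.12, and it did not pass the test over all probes (adjusted p = 0.168), whereas the brighter probe did (adjusted p = 0.0408).

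The probes of Dach1 thus had the same sign on every array and unequal sizes. The second one was dim, with raw signals of 53 to 80 for the knock-out and 99 to 164 for wt, while the brighter one had raw signals of 1421 to 2509 and 2063 to 8304. With 1 array left out, the second probe was at -0.52 without array 1 (limma, adjusted p = 0.000496), which leaves the arrays of a single slide, at -0.34 without array 2 (adjusted p = 0.587) and at -0.30 without array 3 (adjusted p = 0.742).

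**Figure D3:**
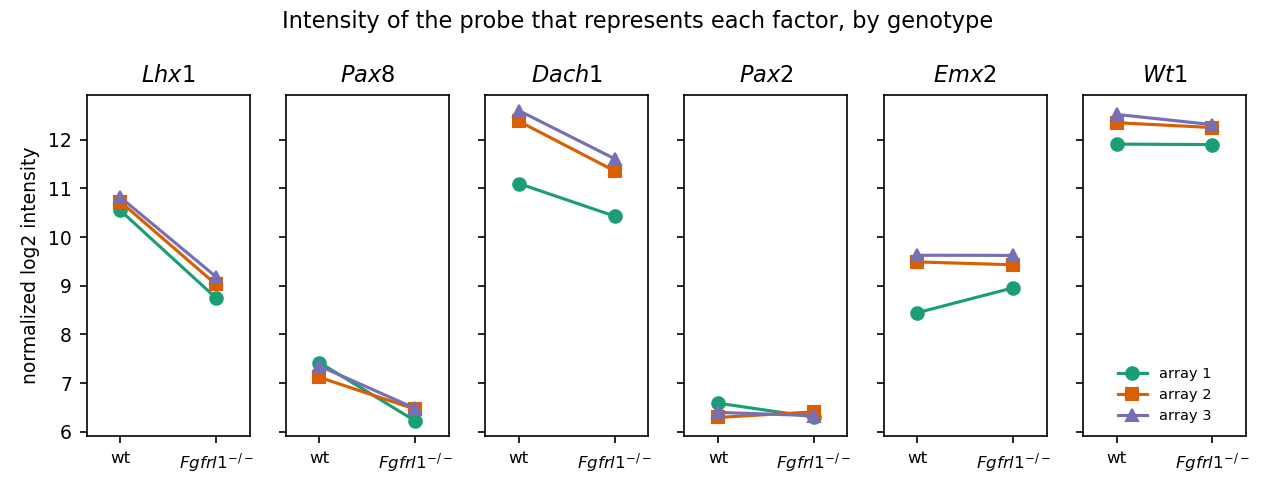
Normalized log2 intensity of the probe that represents each factor in wt and Fgfrl1-/- RNA, with 1 line per array; the height of a probe cannot be compared with that of another. The lines fall on all 3 arrays for Lhx1, Pax8 and Dach1, for example from 10.55 to 8.75 for Lhx1 on array 1, and Emx2 rises on array 1 alone.

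Pax2 did not pass the test. Averaged over its spots, the log2 ratios were -0.29, 0.11 and -0.07 on arrays 1, 2 and 3, a mean of -0.08 ± 0.20 (SD, n = 3). The interval of the log2 fold change ran from -0.32 to 0.16 (limma, adjusted p = 0.715). The arrays did not share a sign. On array 1 all Pax2 spots in use were below 0, from -0.457 to -0.164, whereas on array 2 they ran from -0.0833 to 0.248, so these arrays differed by more than the spread of their spots.

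The Pax2 probe was dim in both genotypes, with median raw signals of 41.5 to 49 for the knock-out and 73 to 86 for wt, over backgrounds of 17.25 to 27.75 and 46 to 56.5. It was well above background in both channels on every array, but below the median signal of all non-control spots. That median was 60 to 97 for the knock-out and 99.5 to 113 for wt. The added offset, larger than the signal above background, limits the size of the change that the Pax2 probe could show. Without the offset its log2 fold change was -0.19, and in the scanner ratios it was -0.32, and it passed the test in neither.

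Emx2 had log2 ratios of 0.51 on array 1, -0.06 on array 2 and 0.00 on array 3 at its brighter probe, at chr19:59517902-59517961. Its second probe, at chr19:59517355-59517414, gave 0.58, -0.08 and -0.12. On both probes array 1 stood apart from the arrays of the other slide, and the means of 0.15 ± 0.31 and 0.13 ± 0.39 (SD, n = 3) were smaller than their spread (limma, adjusted p = 0.58 over genes and 0.774 over probes). Without array 1 the log2 fold change of Emx2 was -0.03. The interval over all arrays, from -0.16 to 0.46, did not reach down to the fold change of Dach1.

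Wt1 did not pass the test either. The 10 spots of its probe, at chr2:104974110-104974169, gave mean log2 ratios of -0.01, -0.10 and -0.20 on arrays 1, 2 and 3. The mean was -0.11 ± 0.10 (SD, n = 3), with an interval from -0.29 to 0.08 (limma, adjusted p = 0.506). Raw signals were high, from 3062 to 4155.5 for the knock-out and from 3780.25 to 8483.75 for wt, over backgrounds of 18.5 to 28.5 and 47.5 to 56. In median centring its log2 fold change was -0.47, also not called (adjusted p = 0.336), and with each array left out in turn it ran from -0.15 to -0.06. The ratio was below 0 on every array, but on array 1 the spots spread on both sides of 0, from -0.295 to 0.236.

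**Figure D4:**
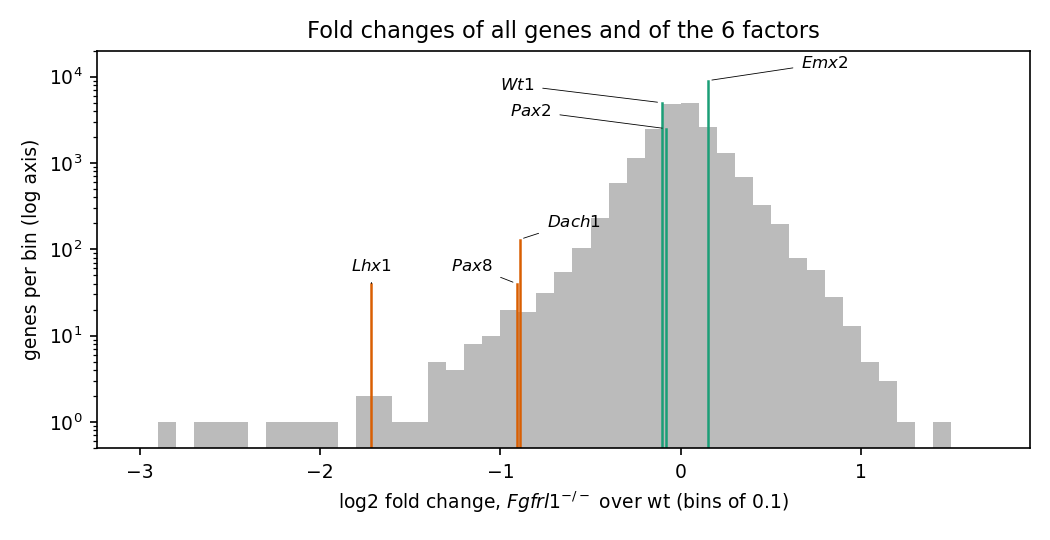
Number of genes per bin of log2 fold change for all 19757 genes, on a log axis, with vertical lines at the 6 factors whose height has no meaning. Lhx1 at -1.72, Pax8 at -0.91 and Dach1 at -0.89 lie in the lower tail, where 0.0456%, 0.304% and 0.309% of genes had a lower fold change, and Wt1, Pax2 and Emx2 lie at the centre.

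Set against each other within each array, the early factors were below the wider ones without exception, when each gene was represented by its brightest probe. The mean log2 ratio of the early factors minus that of the wider ones came to -1.30, -1.11 and -1.08 on arrays 1, 2 and 3. The average difference was -1.16 ± 0.12 (SD, n = 3 arrays). It is given with no test, since members are not replicates of a condition and were chosen with results in view. The least negative early factor was Dach1 on array 1 at -0.67 and Pax8 on arrays 2 and 3 at -0.66 and -0.87. The lowest wider factor was Pax2 on array 1 at -0.29 and Wt1 on arrays 2 and 3 at -0.10 and -0.20. The gap between them was 0.385, 0.553 and 0.665. With all detected probes the groups overlapped on array 1, where the second Dach1 probe at -0.12 lay above Pax2.

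The paired box genes, which share much of their sequence and of their role, differed on every array, each measured by a dim probe. Pax8 minus Pax2 was -0.91, -0.77 and -0.80 in log2 ratio on the 3 arrays, a mean of -0.83 ± 0.08 (SD). Each gene on its own varied more, with SDs of 0.27 and 0.20, and both had their lowest ratio on array 1. The mean contrast was -1.53 both without the offset and in the scanner ratios, and -0.36 with the probes of a gene averaged, which takes in the undetected Pax8 probe. Against Wt1, the difference was -1.61 ± 0.18 for Lhx1 and -0.79 ± 0.13 for Dach1. Within the early group, Lhx1 was below Pax8 on every array, by a log2 ratio of -0.81 ± 0.23 on average. This gap was much smaller without the offset, with Lhx1 at -1.84 and Pax8 at -1.72. In the scanner ratios they were at -1.86 and -1.84. As only 3 arrays were used, a sign test over arrays could not give a 2-sided p under 0.25.

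The other genes of the same families mostly did not pass the test. Among the 9 Pax genes, Pax8 alone was called, and 2 of the 9, Pax2 and Pax8, were detected in both genotypes throughout. Of the 18 LIM homeobox genes and cofactors, 1 was lower, Lhx1, and 1 was higher, Ldb2, an adaptor that bridges LIM proteins, at 0.76 in log2 fold change (limma, adjusted p = 0.0196). In median centring, where the ratios are only shifted to a median of 0 in place of the intensity-dependent correction, Ldb2 was at 0.53 and was not called (adjusted p = 0.242). The median over these 18 genes was 0.02, close to that of all genes.

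In the Six-Eya-Dach network, 2 of 10 genes were lower and both were Dach genes. Dach2, a close relative of Dach1, had log2 ratios of -0.37, -0.88 and -0.69, with a mean of -0.65 (limma, adjusted p = 0.0424). Like Dach1, it had its highest ratio on array 1, and in median centring it was at -0.70 and was not called (adjusted p = 0.0876). Six2, which marks the self-renewing cap cells, had a log2 fold change of -0.05 and Eya1 had -0.42, neither of which passed. In median centring Eya1 was at -0.81 and was called (adjusted p = 0.0304), so the 2 genes called there were Dach1 and Eya1. The median of the network was -0.01.

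Among 24 partners and targets of Pax2, Pax8 and Wt1, 23 were measured, of which 3 were lower and 1 was higher. Gdnf, the ligand that draws the ureteric bud into the mesenchyme, had a log2 fold change of -0.83 (limma, adjusted p = 0.0175). Spry1, an inhibitor of receptor signaling, was at -0.94 (adjusted p = 0.0134) and the cap cell cofactor Cited1 at -0.78 (adjusted p = 0.0202). Bmper, which binds bone morphogenetic proteins, rose by 0.82 (adjusted p = 0.0134), and in median centring it was at 0.49 and was not called. The median over these genes was -0.05, or -0.21 in median centring, and the 19 others included Osr1 at 0.05, Sall1 at -0.11 and Paxip1, a protein that links Pax proteins to chromatin, at 0.00.

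Of 21 further transcription factors of the nascent nephron, 5 were lower and 3 were higher, and the median was -0.07. Hes5 and Hey1, which respond to Notch, were at -1.39 and -1.23, the Wnt effector Lef1 at -1.13, the homeodomain protein Uncx at -1.15 and Osr2 at -0.76. Foxc1 at 0.71 and Mecom at 0.49 were among those called higher. In median centring none of the 3 higher genes was called, and Osr2 was not called either. Pou3f3, with a log2 fold change of -0.28, did not pass.

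Of the signals and epithelial genes of the nascent nephron, 10 of 14 were lower and none was higher, with a median of -1.04. Wnt4, which drives the change from mesenchyme to epithelium, was at -2.40 (limma, adjusted p = 0.00638) and Fgf8, which is needed for Lhx1 expression in vesicles, at -2.05 (adjusted p = 0.00795). Dkk1, an inhibitor of Wnt signals, was at -2.25, Jag1 and Dll1, ligands of Notch, at -1.28 and -1.08, and the cadherin Cdh4 at -1.90. In median centring 9 of these 14 genes were called lower. The list and the early factors had been chosen with results of these arrays known, so their common direction is not independent evidence.

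Markers of other cells moved in part with these factors, and their share in the results was not tested. Of 13 cap mesenchyme markers, 4 were lower (Gdnf, Itga8, Cited1 and Meox2) and none was higher, with a median of -0.30. Among 13 ureteric markers, 3 were lower and 3 were higher, with a median of 0.30. The 11 stromal markers held 4 that were higher, Foxd1, Pdgfra, Dcn and Col1a1, and none that was lower, with a median of 0.37. The paper also measured Col1a1 and Tfcp2l1, a ureteric marker called higher here, by qPCR at E12.5 and saw a rise in neither. Of 8 macrophage markers, 3 were higher, with a median of 0.45. In median centring none of the stromal, ureteric and macrophage markers was called higher. There 6 cap markers, with Eya1 and Crym added, were lower, as were 2 ureteric markers and 1 stromal marker, Tcf21 at -0.82 (adjusted p = 0.0277). It also moved the median of the cap markers to -0.61, of the stromal markers to 0.01, of the macrophage markers to 0.35, of the ureteric markers to 0.09, of the Six-Eya-Dach genes to -0.27 and of the nascent nephron transcription factors to -0.24, and none of the called genes of these lists turned its sign under that or the other scalings.

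None of the 8 endothelial, 8 erythroid, 9 gonad and adrenal or 7 skeletal muscle markers passed the test in either direction, and 1 of 8 neural markers, Elavl4, was lower at -0.71. Over all genes 1.70% were called lower and 1.96% higher, and at that share lists of this size would hold few calls. Of the erythroid markers 6 of 8, and of the muscle markers 5 of 7, were well above background throughout. In median centring 1 erythroid marker, the embryonic globin Hba-x, was called lower at -0.92 (adjusted p = 0.00842), and the erythroid median moved from -0.06 to -0.31. The gonad and adrenal list bears on Wt1 and Emx2, which the neighboring gonad also expresses. It had a median of -0.01, and 5 of its 9 genes were well above background throughout.

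The genes whose ratios on the 3 arrays came closest to each factor were sought among the 13163 others that were well above background throughout. For Lhx1 they were Aldh1a1, Cdh4 and Fgfrl1 itself, at Euclidean distances of 0.483, 0.603 and 0.647 in log2 ratio, so no gene had nearly the same ratios. Pax8 was closest to Rem1, Lbx2 and Gdnf, at distances of 0.136, 0.165 and 0.188. Dusp2, Col13a1 and Pfdn4 followed Dach1 most closely, at 0.087, 0.105 and 0.117. For Pax2, Emx2 and Wt1, which lie where most genes lie, the closest genes were within 0.0305, and they were Tmem128 for Pax2, Tufm for Emx2 and Rpl22 for Wt1.

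**Figure D5:**
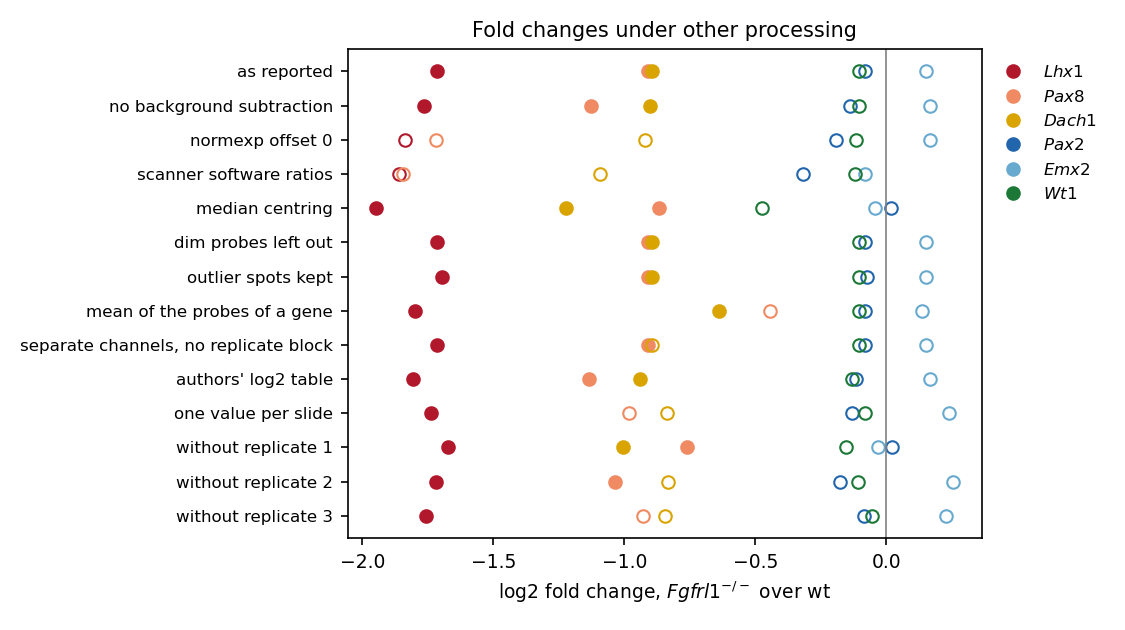
Log2 fold change of the 6 factors as reported (top row) and under 13 other ways of processing, with filled symbols where the adjusted p was below 0.05. Lhx1 lies between -1.95 and -1.67 throughout, Pax8 between -1.84 and -0.44, Dach1 between -1.22 and -0.64, and Pax2, Emx2 and Wt1 were never called.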

How the data were processed

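The authors deposited a scanner file per array, written by Agilent Feature Extraction (per the file headers release 9.5.3.1 on array 1, release 10.5.1.1 on the others, per the labels version 10), with intensity values per spot and log10 ratios of red over green. The deposited table of log2 ratios was used as an alternative. Positions are those of the files (mm8). Gene names came from the file of array 1 and were updated through a RefSeq table of GRCm38.p6, and 33115 of 41174 probes had a gene.

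Median signals were background corrected (normexp, offset 50), normalized within each array by loess without control spots, and turned to Fgfrl1-/- over wt. Spots marked as outliers were left out and repeated spots averaged. The brightest probe represented a gene. Fold changes were tested against 0 with limma 3.58.1 in R 4.3.3, 2-sided, with Benjamini-Hochberg adjustment over all 19757 genes or 41174 probes, and called below 0.05. The code was tested on simulated data. Well above background is the scanner's own mark, given to 57.1% to 80.2% of probes per channel. No spot was saturated. The pools of an array were paired by its ratio.

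The members and gene lists were chosen with earlier results of these data known. The genes named are the members, Fgfrl1, genes called within a list with some uncalled ones as examples, and the 3 genes closest to a member, of which only the first is named for Pax2, Emx2 and Wt1. Alternatives covered background, normalization, probe choice, separate channels, slide and each array left out. Some genes of the lists are counted but not reported here by name. The number of arrays limits the precision.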

Additional observations from a re-analysis of the deposited data

How the results depend on the processing

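Over 13 alternatives Lhx1, Pax8, Dach1 and Wt1 stayed below 0, and Lhx1 was called in 11, Pax8 in 8 and Dach1 in 7. Without the offset and in the scanner ratios no gene passed (unadjusted p below 0.05 for 1560 and 1871 genes lower, and 1727 and 1978 higher). There Lhx1 was at -1.84 and -1.86, Pax8 at -1.72 and -1.84, Dach1 at -0.92 and -1.09 and Fgfrl1 at -1.68 and -1.83, none of them called, and early minus wider factors was -1.45 and -1.43. With the probes of a gene averaged, the undetected Pax8 probe took Pax8 to -0.44 (adjusted p = 0.0523). The second Dach1 probe took Dach1 to -0.64, and early minus wider factors was then -0.94. With the brightest probes as reported and Dach1 left out of the early group, the difference was -1.30. In separate channels, with no replicate block but the channels of a spot linked by a correlation of 0.716, Dach1 was not called (-0.89, adjusted p = 0.0744). With 1 value per slide 32 genes were lower and 6 higher, and Pax8 (-0.98, adjusted p = 0.08) and Dach1 (-0.84, adjusted p = 0.0908) were not called. The authors' table gave 157 lower and 113 higher. Median centring gave 305 lower and 17 higher against 336 and 387, so that 94.7% of calls were lower in place of 46.5%, while the median over all genes was -0.02 in place of 0.01. It took Wt1 to -0.47 (adjusted p = 0.336), turned Pax2 to 0.01706 and Emx2 to -0.04413, and the scanner ratios turned Emx2 to -0.07939 and its second probe to -0.13. The undetected Pax8 probe was at -0.001187 with 1 value per slide. None of these reversed values passed a test.

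Leaving out each array in turn gave 8 to 2257 genes lower (8 without array 3, 38 without array 2, 2257 without array 1) and 0 to 2439 higher (0, 11 and 2439, with 1233 at an unadjusted p below 0.05 where none passed). Over genes Lhx1 ran from -1.76 to -1.67 and was called each time, Pax8 from -1.03 to -0.76, Dach1 from -1.01 to -0.83 and Fgfrl1 from -1.67 to -1.36. Without array 3, Pax8 (adjusted p = 0.164), Dach1 (0.157) and Fgfrl1 (0.0913) were not called, and without array 2 neither was Dach1 (0.0784). Wt1 ran from -0.15 to -0.06, Pax2 from -0.18 to 0.02296, Emx2 from -0.03058 to 0.25, its second probe from -0.10 to 0.25 and the second Pax8 probe from -0.0281 to 0.07115, and the values of turned sign were those without array 1, or without array 3 for Pax8. Early minus wider factors ran from -1.20 to -1.09. Where the cause is not stated it was not tested. The slide as a random block could not be fitted to these 3 arrays. No fit with a replicate block across groups was needed, as each array holds both genotypes.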
